A study of Mus musculus with 10 samples.

Results

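Gallbladder of B6 embryos was compared with gallbladder of ICR embryos at 15 days post coitum (dpc), over both Sox17 genotypes. The comparison took in 8 of the 10 samples of the series, chosen by their labels: all 4 B6 and all 4 ICR gallbladder samples, with the ICR cystic duct left out. The B6 side held Sox17+/- gallbladder (replicates 3 and 4) and wild type gallbladder (replicates 3 and 4) of C57BL/6 (B6), an inbred strain. The ICR side held Sox17+/- gallbladder (replicates 1 and 2) and wild type gallbladder (replicates 1 and 2) of ICR, an outbred stock whose animals differ genetically from each other. Each side thus carried the same share of Sox17+/- samples, and genotype was a term of the model. Sox17 encodes a transcription factor needed to form the gallbladder. The labels do not describe the allele, the number of embryos per sample or the litters, so p-values measure the spread between these samples, which the series design calls biological replicates. Signals were Affymetrix probe set values on a log2 scale, on which 1 log2 unit is a 2-fold difference, and every difference is B6 minus ICR.

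The gallbladder is an outpouching of the embryonic foregut that stores and concentrates bile, with a biliary epithelium inside a wall of fibroblasts and smooth muscle. Inbred strains carry a fixed set of alleles, and genes that differ between mouse strains often lie in families of neighbouring copies, such as the Trim and interferon-inducible Ifi genes of innate immunity and the KRAB zinc finger genes. Short probes can read a transcript more weakly where its sequence differs from the one they were designed on, so a signal difference between strains need not be a difference in transcript amount.

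Markers of the labelled organ were present in both strains. The epithelial adhesion molecule Epcam averaged 11.89 ± 0.15 log2 units in B6 and 11.85 ± 0.28 in ICR (SD, n = 4 each). The cytokeratin Krt19 averaged 10.60 ± 0.29 in B6 and 10.29 ± 0.17 in ICR, and smooth muscle actin Acta2 13.82 ± 0.10 in B6 and 13.89 ± 0.21 in ICR. Transcripts of other tissues were present as well, such as albumin (Alb) of hepatocytes at 14.07 ± 0.21 in B6 and 13.71 ± 0.64 in ICR. None of Epcam, Krt19, Acta2 and Alb passed the test (limma adjusted p between 0.193 for Krt19 and 0.860 for Epcam). Xist of the inactive X chromosome (11.67 to 12.80) and Eif2s3y of the Y chromosome (7.77 to 8.47) were read in all 8 samples.

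Samples were more alike within B6 than within ICR. Across 14661 genes, pairs of B6 samples correlated at r = 0.989 to 0.996, pairs of ICR samples at 0.955 to 0.988 and pairs across strains at 0.944 to 0.985, a description over genes read by the same probes. ICR wild type replicate 1 stood apart, with 467 genes over 1 log2 unit outside the range of all other samples, and main counts are also given without it. Leaving it out, pairs of ICR samples correlated at 0.977 or more. The arrays also differed in control measures. Bacterial hybridization controls, spiked in rather than taken from the tissue, averaged 11.32 ± 0.16 log2 units in B6 and 9.73 ± 1.01 in ICR (SD, n = 4 each). The groups did not overlap, and the lowest values were those of ICR wild type replicate 1 (8.38) and ICR Sox17+/- replicate 1 (9.54). The two-sided exact permutation test gave p = 0.0286, the smallest that 4 against 4 allows, and 0.0476 after adjustment over 5 measures. The signal at the 3′ end minus that at the 5′ end was 0.17 ± 0.12 in B6 and 0.64 ± 0.21 in ICR for Gapdh. It ran the other way for Tfrc, at 2.70 ± 0.09 in B6 and 1.73 ± 0.30 in ICR (exact permutation p = 0.0286 each, adjusted 0.0476). For Actb and Pcx the exact permutation p was 0.657 and 0.914. The labels give no array batch, and strain and array batch cannot be told apart.

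**Figure D1:**
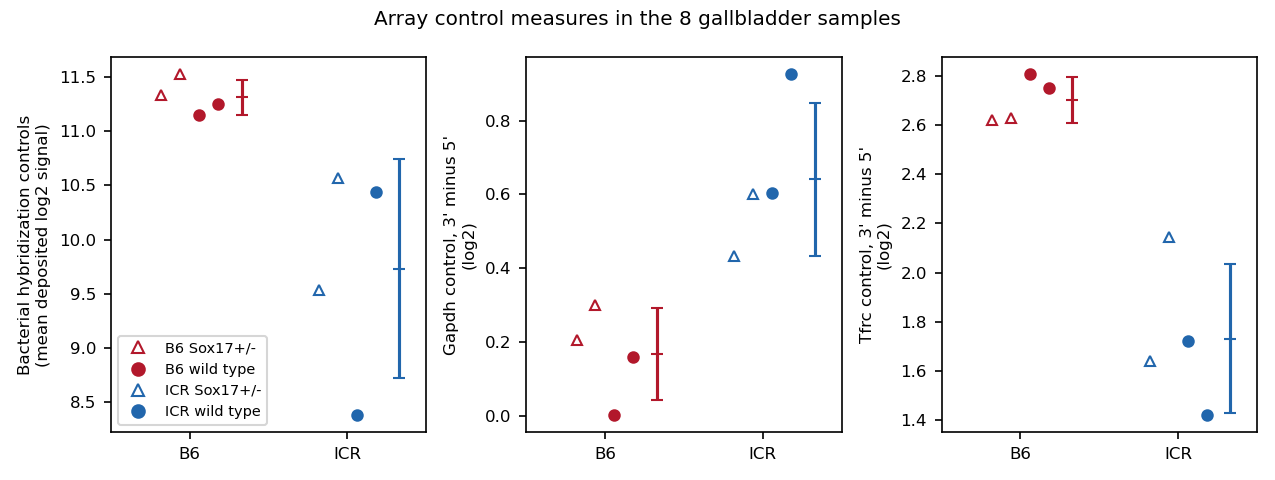
Control measures of the 8 gallbladder arrays: mean deposited log2 signal of the bacterial hybridization controls (left), and the 3′ minus 5′ log2 difference of the Gapdh (middle) and Tfrc (right) control probe sets. Points are samples (triangles Sox17+/-, circles wild type), bars are mean and SD (n = 4), and in each panel the 4 B6 samples lie apart from the 4 ICR samples and closer together.

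The strains differed in many genes. Of 14661 genes tested, 734 were higher (5.01%) and 578 lower (3.94%) in B6 than in ICR by limma at an adjusted p under 0.05, 1312 in all or 8.95%. The 4 B6 values lay all above or all below the 4 ICR values in 2830 genes (19.3%), above in 1857 (12.7%) and below in 973 (6.64%). Among the genes that passed, 88 rose and 144 fell by at least 1 log2 unit, and 8 rose and 22 fell by at least 2. The median difference was 0.57 log2 units among genes that rose, -0.64 among those that fell and 0.05 over all genes tested. The split by direction depends on scaling: 55.9% of calls were higher in B6 after quantile normalization, 29.7% of 748 calls with the values as deposited and 76.2% of 1694 calls after centring on medians. The median over all genes was -0.05 as deposited and 0.14 after centring.

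The count also rested on single libraries. It was 477 when B6 wild type replicate 4 was left out, 480 for B6 wild type replicate 3, 569 for B6 Sox17+/- replicate 4 and 771 for ICR wild type replicate 2. Leaving out the array that stood apart, ICR wild type replicate 1, gave 1427 genes, and leaving out both ICR samples of number 1, whose hybridization controls were lowest, gave 1903. Samples of one replicate number deviated together within a strain (r = 0.203 in B6 and 0.378 in ICR), and with the number as a random replicate block the count was 810. Of 73 genes chosen by the naming rule that passed, 17 lost their call with the block: Ltf, Kit, Prox1, Lgr4, Aqp1, Tnnt1, Fcgr3, Dpt, Prph, Hmga2, Hspa1b, Egr1, Btg2, Ankrd37, Slc2a3, Ugt2b34 and Cyp1b1. The 12 largest rises and 12 largest falls that follow were taken among genes that passed without overlap, numbered gene models left out. They kept their direction in all of these.

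The largest rise was that of Ang, angiogenin, a secreted ribonuclease. Its log2 signal was 9.58 and 9.51 in B6 Sox17+/- and 9.54 and 9.59 in B6 wild type samples, against 5.38 and 5.38 in ICR Sox17+/- and 5.32 and 5.64 in ICR wild type samples. All 4 B6 values lay close together and far above every ICR value. The difference was 4.13 log2 units (SE 0.09; 17.5-fold; limma adjusted p = 5.1e-07), and the other probe sets of Ang read 4.22 and 1.91. Its neighbour Rnase4, another secreted ribonuclease, averaged 11.27 ± 0.10 in B6 and 11.60 ± 0.01 in ICR (SD, n = 4 each), a difference of -0.33 (SE 0.06; limma adjusted p = 0.0173). The groups overlapped in neither gene, which for Ang the naming rule required, and the neighbours went in opposite directions. The RefSeq promoter table (GRCm38.p6) gives Ang and Rnase4 one shared window of 250 bases before to 50 after the start, while Rnase4 has another start downstream. The shared window, chr14:51090827-51091126 on the plus strand, is printed because both transcripts can start there and yet they differed in sign. It is in lower case throughout because it holds no match to the motif searched below.
Ang and Rnase4: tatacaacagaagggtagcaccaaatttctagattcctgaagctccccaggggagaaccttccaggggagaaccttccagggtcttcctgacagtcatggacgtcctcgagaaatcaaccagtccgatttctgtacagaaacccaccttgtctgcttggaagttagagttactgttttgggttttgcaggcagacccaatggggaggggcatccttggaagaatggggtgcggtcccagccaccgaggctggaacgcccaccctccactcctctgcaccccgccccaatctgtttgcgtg

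In a block of Trim genes on chromosome 7, 4 of 6 measured genes rose, where 5.01% of all genes did. Trim12a, Trim30d and Trim34a were already among the largest rises. The block was thus picked by its own values, and its count is a description, not a test of enrichment. Trim proteins are ubiquitin ligases, many of them tied to antiviral defence. Trim12a read 7.04 and 7.02 in B6 Sox17+/- and 6.97 and 6.94 in B6 wild type samples, against 3.03 and 3.39 in ICR Sox17+/- and 3.09 and 2.94 in ICR wild type samples, a difference of 3.88 (SE 0.10; 14.7-fold; limma adjusted p = 1.05e-06). Trim30d read 7.21, 6.91, 7.02 and 7.10 in B6 and 4.45, 4.78, 4.67 and 4.35 in ICR, and Trim34a 7.90, 7.63, 7.59 and 7.72 in B6 and 5.56, 6.45, 5.71 and 5.65 in ICR, in the sample order given for Trim12a. Their differences were 2.50 (SE 0.12) and 1.86 (SE 0.18), and Trim30a, between Trim12a and Trim30d in gene order, differed by 0.87 (SE 0.10); limma adjusted p was 4.68e-05 for Trim30d, 0.00168 for Trim34a and 0.00225 for Trim30a. No B6 value overlapped an ICR value in these 4 genes, which the naming rule required of all but Trim30a. Trim5 (-0.28, SE 0.19) and Trim12c (0.12, SE 0.09), which lie among them, did not pass (limma adjusted p = 0.390 and 0.432). The ICR mean of Trim12a, 3.11, lies below the level of 4.40 that served as the filter on dim genes, so its fold rests on a dim signal. These genes are close copies of each other, and how far each probe set reads its neighbours was not tested.

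The promoters of the 4 Trim genes that rose are shown because these genes are neighbours. The motif searched, on both strands, was GAAA, then any 2 bases, then GAAA, the core of the interferon-stimulated response element. It occurs in 1131 of 32851 promoter windows of 300 bases in the RefSeq table (3.44%). Of 10 Trim genes of the block with a window, 6 held it: Trim34a, Trim5, Trim12a, Trim12c, Trim30a and Trim30d, which are the 6 with a measured signal and include the 2 that did not pass. Trim30a has 2 windows with a match each, of which the upstream one is printed. The matches, in capitals, lie on the strand opposite to the gene and do not overlap. They start at base 261 of the windows of Trim34a (chr7:104244207-104244506, plus strand) and Trim12a (chr7:104315446-104315745, minus strand), base 215 for Trim30a (chr7:104465144-104465443, minus strand) and base 210 for Trim30d (chr7:104507800-104508099, minus strand). The 6 of 10 counts genes, while the 3.44% counts windows. These genes are close copies, so their windows are not separate observations, and enrichment of the motif was not tested. A match describes letters in the reference strain and is not evidence of binding.
Trim34a: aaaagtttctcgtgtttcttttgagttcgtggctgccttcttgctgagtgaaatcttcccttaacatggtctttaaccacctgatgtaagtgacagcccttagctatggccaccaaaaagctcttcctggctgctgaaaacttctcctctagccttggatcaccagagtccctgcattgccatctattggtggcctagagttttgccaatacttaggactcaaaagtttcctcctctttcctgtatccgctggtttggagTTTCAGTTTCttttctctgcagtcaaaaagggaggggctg
Trim12a: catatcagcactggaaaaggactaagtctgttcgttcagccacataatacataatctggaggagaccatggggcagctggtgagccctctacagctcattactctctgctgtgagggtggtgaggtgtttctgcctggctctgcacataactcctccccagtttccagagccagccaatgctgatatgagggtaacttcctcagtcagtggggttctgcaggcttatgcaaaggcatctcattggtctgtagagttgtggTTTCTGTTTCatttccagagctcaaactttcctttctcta
Trim30a: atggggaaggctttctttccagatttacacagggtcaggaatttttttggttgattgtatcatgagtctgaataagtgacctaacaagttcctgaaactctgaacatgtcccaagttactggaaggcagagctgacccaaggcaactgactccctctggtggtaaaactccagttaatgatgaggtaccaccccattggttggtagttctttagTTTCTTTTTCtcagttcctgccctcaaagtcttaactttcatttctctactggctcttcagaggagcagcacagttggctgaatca
Trim30d: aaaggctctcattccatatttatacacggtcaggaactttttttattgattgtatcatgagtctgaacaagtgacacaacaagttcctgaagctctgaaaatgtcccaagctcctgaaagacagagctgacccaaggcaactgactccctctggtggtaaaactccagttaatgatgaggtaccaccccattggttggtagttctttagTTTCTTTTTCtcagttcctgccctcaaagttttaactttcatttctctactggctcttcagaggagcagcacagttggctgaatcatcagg

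Other large rises came from several gene families. Zfp874a, a zinc finger gene, read 7.21, 7.13, 7.07 and 7.27 in B6 and 3.82, 3.52, 4.20 and 3.72 in ICR (difference 3.36, SE 0.14; 10.2-fold; limma adjusted p = 1.71e-05), with the ICR values below the filter level. Serpina1c, an antitrypsin secreted by liver cells, read 12.47, 12.48, 12.21 and 11.83 in B6 and 10.23, 9.75, 9.28 and 8.002 in ICR (difference 2.93, SE 0.29; limma adjusted p = 0.00184). Neither gene overlapped between the strains, which the naming rule required, and Serpina1c varied more within ICR than within B6. Pcdh17, a protocadherin, rose by 2.20 (SE 0.13; limma adjusted p = 0.000160), yet its other probe set read -0.65. The remaining rises were Smco3 (1.99, SE 0.16), Insyn2b (1.94, SE 0.19), Cfap69, a protein of cilia and flagella (1.85, SE 0.18), Cd52, a surface glycoprotein of leukocytes (1.83, SE 0.28), and Ltf, the neutrophil granule protein lactoferrin (2.01, SE 0.50). In ICR, Smco3 averaged 4.07, Cfap69 4.24 and Insyn2b 4.30, all below the filter level. Of the 12 rises only Ltf lost its call when a single library was left out: it did so without either B6 Sox17+/- sample, either B6 wild type sample or replicate 2 of ICR Sox17+/- or ICR wild type (limma adjusted p up to 0.128).

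**Figure D2:**
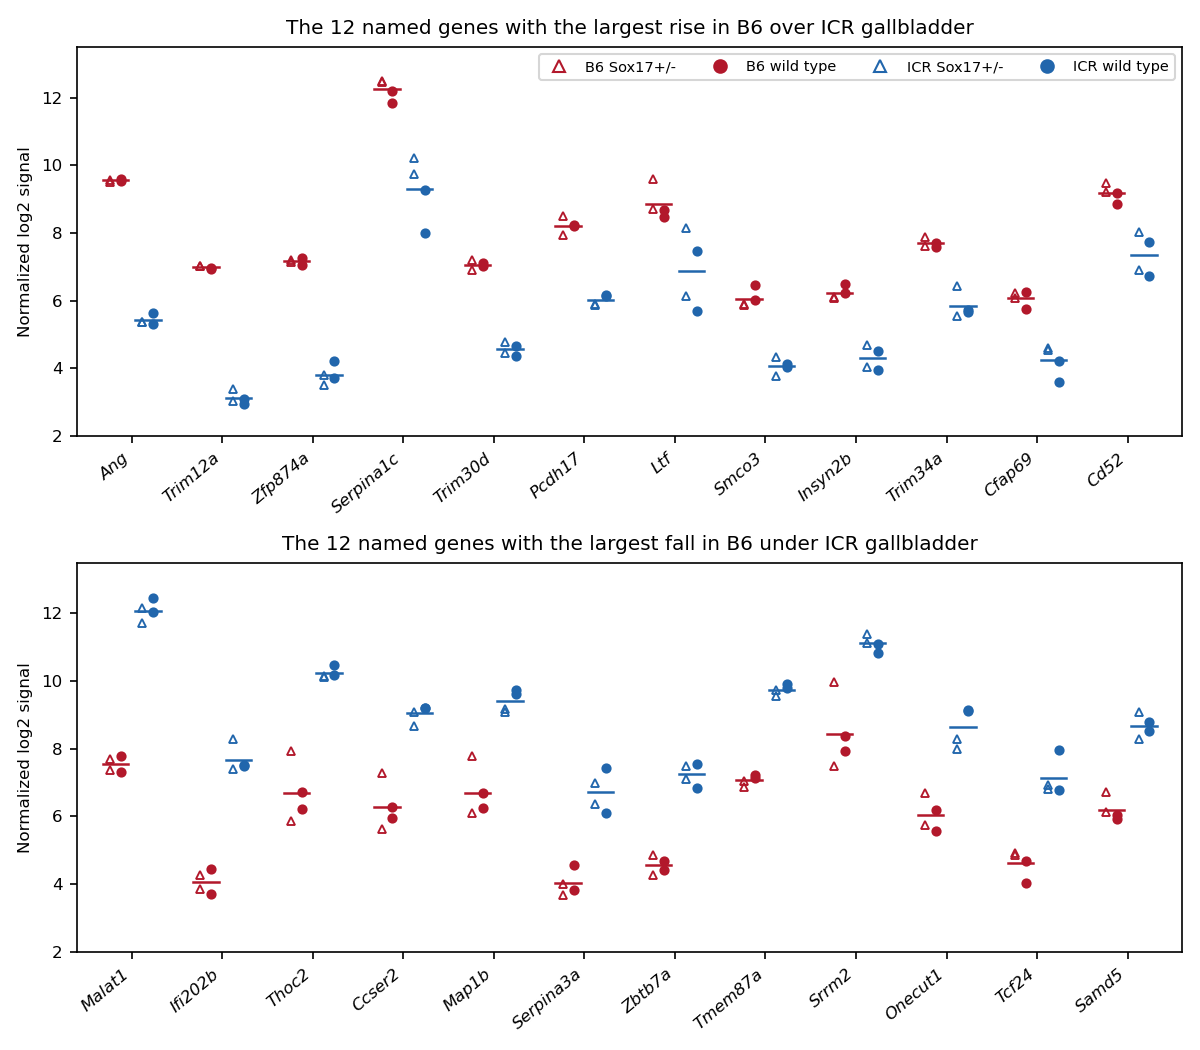
Normalized log2 signal of the 12 genes with the largest rise (top) and the 12 with the largest fall (bottom) in B6 gallbladder. They were taken among genes that passed without overlap and are not numbered gene models. Each gene has the 4 B6 samples on the left in red and the 4 ICR samples on the right in blue (triangles Sox17+/-, circles wild type, lines means). The strains overlap in none of the 24 genes because the naming rule required it. In Thoc2, Ccser2, Map1b, Srrm2, Zbtb7a, Onecut1 and Samd5 the highest B6 point is Sox17+/- replicate 3.

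The largest fall was that of Malat1, a long non-coding RNA kept in the nucleus. It read 7.68, 7.38, 7.79 and 7.30 in B6 and 11.71, 12.15, 12.03 and 12.44 in ICR, in the order Sox17+/- then wild type, a difference of -4.54 (SE 0.16; 23.4-fold lower; limma adjusted p = 6.45e-06). The groups lay far apart on this probe set, but the 7 probe sets of Malat1 did not agree: the others ranged from -4.33 to 1.30. Neat1, the non-coding RNA next to Malat1 in many genomes, differed by 0.81 (SE 0.14; limma adjusted p = 0.0139), with 0.01 on its other probe set. Ifi202b, an interferon-inducible gene, read 3.86, 4.26, 4.43 and 3.69 in B6 and 8.27, 7.39, 7.49 and 7.52 in ICR (difference -3.61, SE 0.23; 12.2-fold lower; limma adjusted p = 0.000226). Its B6 mean of 4.06 lies below the filter level. Tmem87a, a membrane protein of the Golgi, read 7.04, 6.86, 7.12 and 7.22 in B6 and 9.54, 9.74, 9.79 and 9.91 in ICR (difference -2.69, SE 0.08; limma adjusted p = 2.64e-06), the smallest standard error among the 24 genes.

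In several of the 12 largest falls, the same library was the highest B6 sample. Thoc2, a subunit of the complex that readies mRNA for export, read 7.94, 5.87, 6.72 and 6.20 in B6 and 10.14, 10.11, 10.19 and 10.47 in ICR (difference -3.55, SE 0.40; limma adjusted p = 0.00225). Srrm2, a protein of the splicing machinery, read 9.97, 7.49, 8.36 and 7.94 in B6 and 11.38, 11.13, 11.09 and 10.82 in ICR (difference -2.67, SE 0.45; limma adjusted p = 0.0113). Map1b, a microtubule-associated protein, differed by -2.70 (SE 0.36) and Ccser2 by -2.76 (SE 0.33). In these 4 genes, and also in Zbtb7a, Onecut1 and Samd5, B6 Sox17+/- replicate 3 was the highest B6 sample. Over genes that fell by at least 1 log2 unit, its median deviation from the mean of the other B6 samples was 0.51 log2 units. Without that library the 4 falls kept their direction and their call. The other named falls were Serpina3a, a serine protease inhibitor (-2.70, SE 0.30; B6 mean 4.02, below the filter level), Zbtb7a, a transcriptional repressor (-2.69, SE 0.20), Tcf24, a helix-loop-helix factor (-2.50, SE 0.31), and Samd5 (-2.47, SE 0.21).

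Where a gene had several probe sets, they often differed. Testing probe sets one by one, 5132 of 31526 passed (16.3%), a count that includes probe sets with no listed gene or with several. Of 342 genes called higher with a further probe set, 96 (28.1%) had one that was called higher too and 55 had one called lower. Of 376 genes called lower, 125 (33.2%) had another called lower and 38 had one called higher. Among genes not called, 14.9% had another probe set called in the direction of the gene's own sign and 13.8% one called in the other direction. The shares with an opposite call were 16.1% among genes called higher and 10.11% among genes called lower. The probe sets of Onecut1 (-2.58 and -2.46), Map1b (-2.70 and -2.01) and Ang (4.13, 4.22 and 1.91) shared a sign. Those of Thoc2 (-3.55, -2.27 and 0.00), Srrm2 (-2.67, -2.90 and -0.31), Ccser2 (-2.76, -0.07 and 0.14), Zbtb7a (-2.69, -0.16 and 0.33) and Samd5 (-2.47 and -0.24) ranged between a large fall and values near 0. Sequence differences under the probes cannot be told apart from transcript differences by these arrays.

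**Figure D3:**
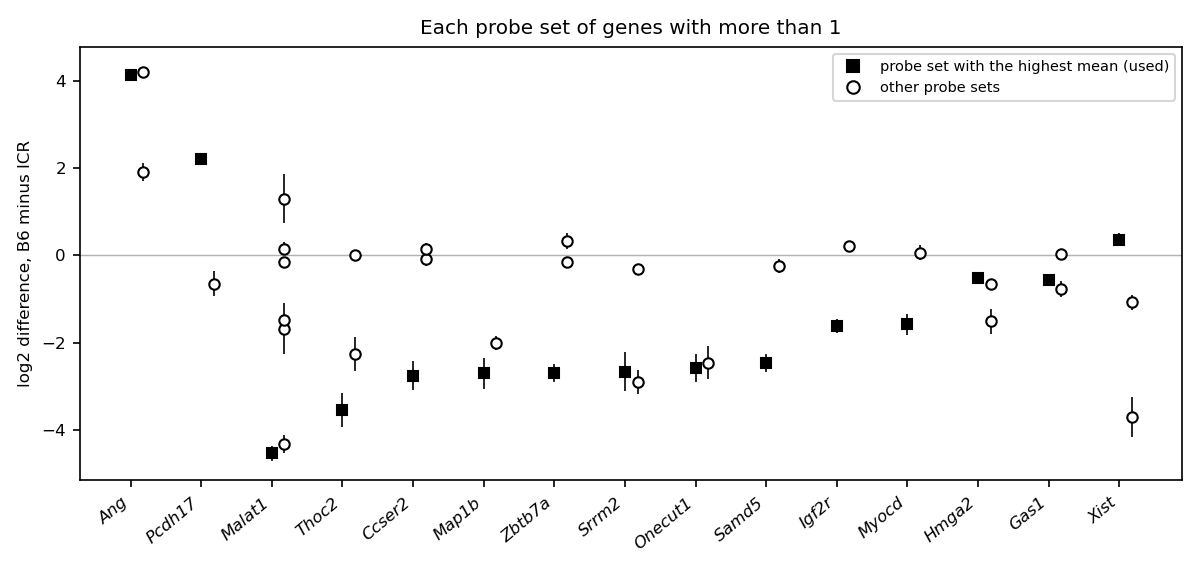
Difference between B6 and ICR gallbladder (log2, B6 minus ICR) for each probe set of named genes that have more than 1, with standard errors. Squares are the probe set that represents the gene and circles are its other probe sets. Ang, Map1b and Onecut1 have probe sets on one side of 0, while those of Malat1, Ccser2, Zbtb7a and Igf2r lie on both sides or near 0.

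Large differences lay next to each other in the gene order in several places. Among 222 genes with a known place that passed without overlap and by at least 1 log2 unit, 53 lay in 24 clusters of neighbours, of at least 2 genes, each within 5 measured genes of the next, and 13 of the 24 clusters went in one direction. This rule was chosen after the data were seen, and genes close in the genome are often copies. Of all genes that passed without overlap by at least 1 log2 unit, 80 rose and 143 fell. How many clusters, or clusters in one direction, genes placed at random would give was not tested. On chromosome 13 the zinc finger genes Rsl1 (1.69, SE 0.13), Zfp429 (1.41, SE 0.11) and Zfp874a rose and Zfp458 (-1.38, SE 0.20) fell. Rsl1 is known as a repressor of sex-limited liver genes. On chromosome 1 the interferon-inducible genes Ifi209 (1.47, SE 0.17) and Ifi204 (1.05, SE 0.13) rose beside Ifi202b, which fell. On chromosome 6 Atf7ip (1.19, SE 0.24), Smco3 and Art4 (1.76, SE 0.12) rose, and on chromosome 17 Igf2r and its overlapping antisense transcript Airn (-1.08, SE 0.12) fell. On chromosome 14, before Ang in gene order, Ccnb1ip1 fell by 2.18 (SE 0.19) in a cluster with Gm26782, which rose by 1.87 (SE 0.16). Ang and, beyond it, Rpgrip1, which rose by 1.50 (SE 0.20), lay too far apart to belong to a cluster by this rule. Each of these genes passed without overlap, as the cluster rule asked of its members, with a limma adjusted p of 0.0206 (Atf7ip) or less. By chromosome, the share of measured genes called ran between 7.05% on X and 11.7% on chromosome 14.

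**Figure D4:**
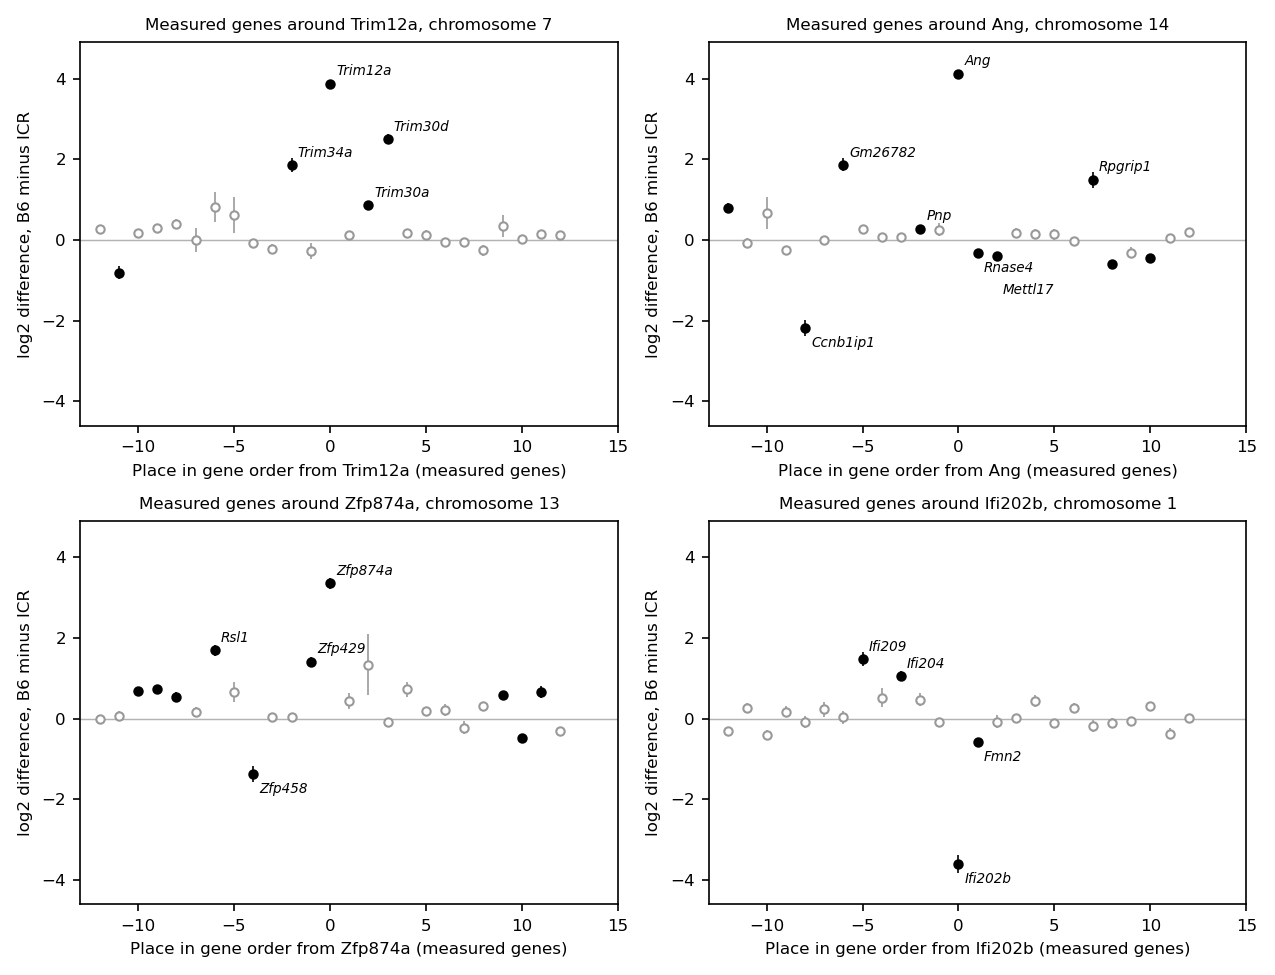
Difference between B6 and ICR gallbladder (log2, B6 minus ICR, with standard error) of the 12 measured genes on either side of Trim12a, Ang, Zfp874a and Ifi202b, by place in gene order. Filled points passed (limma adjusted p under 0.05), and those of at least 1 log2 unit or within 2 places of the centre are named. Trim34a, Trim12a, Trim30a and Trim30d are filled and above 0, with unfilled genes between them. Ifi209 and Ifi204 lie above 0 and Ifi202b below 0.

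Of 31 measured genes known to vary among mouse strains, 7 rose and 3 fell (22.6% and 9.68%, against 5.01% and 3.94% of all genes). Their median was 0.09 log2 units, and -0.11 with the values as deposited. The list holds Trim12a, Trim30d, Trim30a, Ifi202b and Ifi204. Beyond these, Mid1, a ubiquitin ligase gene at the edge of the pseudoautosomal region, fell by 1.77 (SE 0.15; limma adjusted p = 0.000903). It read 5.16, 5.13, 5.15 and 4.91 in B6 and 6.82, 6.85, 6.54 and 7.24 in ICR, with no overlap. This list was written with earlier results of these data known, and its count is a description.

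Among 32 interferon-induced genes 5 rose and 1 fell (15.6% and 3.12%, against 5.01% and 3.94% of all genes), with a median of 0.18. Oasl2, of the oligoadenylate synthetase family, rose by 0.85 (SE 0.12; limma adjusted p = 0.00597), the ADP-ribosyltransferase Parp14 by 0.77 (SE 0.13), the RNA sensor Ifih1 by 0.73 (SE 0.13) and Ifit3 by 0.61 (SE 0.12). The strains did not overlap in these 4 genes, and with the values as deposited none of the 32 passed in limma. The ICR mean of Ifit3, 4.32, lies below the filter level. The number that rose was 3 without B6 Sox17+/- replicate 4 and 2 without either B6 wild type sample. Ifih1 also lost its call without B6 wild type replicate 3 or 4, and Ifit3 without these or B6 Sox17+/- replicate 4 (limma adjusted p up to 0.0571 and 0.0695). Of 21 genes of the major histocompatibility complex, 2 rose and 0 fell (9.52% higher, median 0.20), and 5 rose with probe sets averaged. The 2 were H2-Q10, a secreted class I molecule (0.98, SE 0.19), and Gpsm3, a G-protein regulator encoded within the complex (0.56, SE 0.11). The strains overlapped in H2-Q10 but not in Gpsm3. Both calls were lost without B6 wild type replicate 3 or 4, that of H2-Q10 also without ICR wild type replicate 2 and that of Gpsm3 without B6 Sox17+/- replicate 4 (limma adjusted p up to 0.0641 and 0.0722).

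Leukocyte genes rose where they passed. Of 25 measured, 7 rose and 0 fell (28.0% against 5.01% of all genes), 17 had a limma p under 0.05 before adjustment (27.0% of all genes did), 22 lay above 0 (60.8% of all genes did), and the median was 0.53 beside 0.05 over all genes. The number that rose was 3 or 4 without B6 Sox17+/- replicate 3, either B6 wild type sample or replicate 2 of either ICR group, and 14 without ICR wild type replicate 1. It was 4 with the values as deposited, 14 after centring on medians and, with probe sets averaged, 12 with 1 fall. Without both ICR samples of number 1, 18 rose and 1 fell. The list median stayed between 0.42 and 0.69 when any 1 library, or both ICR samples of number 1, were left out. Ptprc, the pan-leukocyte phosphatase CD45, read 8.96, 8.87, 8.70 and 8.82 in B6 and 7.71, 7.67, 7.92 and 7.63 in ICR (difference 1.10, SE 0.10; limma adjusted p = 0.000918). With its probe sets averaged, Ptprc differed by 0.43 and did not pass (limma adjusted p = 0.0518). Lyz2, lysozyme of macrophages and neutrophils, read 12.13, 11.62, 11.42 and 11.49 in B6 and 10.71, 10.27, 10.33 and 9.89 in ICR (difference 1.36, SE 0.15; limma adjusted p = 0.00224). Both separated the strains. Fcgr3, an immunoglobulin receptor, rose by 0.42 (SE 0.09), a call lost without any of 6 of the 8 libraries, those other than B6 Sox17+/- replicate 4 and ICR wild type replicate 1 (limma adjusted p up to 0.0985). The neutrophil genes S100a9 (2.42, SE 0.55) and Ltf rose most, and in S100a9 ICR Sox17+/- replicate 1 (11.79) overlapped the B6 samples (11.43 to 12.58). In bulk tissue, more cells of a type and more RNA per cell cannot be told apart.

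Among genes of other tissues the counts depended on the libraries. Of 15 erythroid genes all lay above 0 (60.8% of all genes did), with a median of 0.69, and 1 rose (6.67% against 5.01% of all genes). The number was 6 without ICR wild type replicate 1, 7 without both ICR samples of number 1 (median 1.13), 4 after centring on medians, 2 without B6 Sox17+/- replicate 3 and 0 without any other B6 sample. Epb42, a protein of the red cell membrane, rose by 1.60 (SE 0.31), and its call was lost without B6 Sox17+/- replicate 4 or either B6 wild type sample (limma adjusted p up to 0.0705). Of 17 skeletal muscle genes, 1 rose (5.88%, near the 5.01% of all genes), Tnnt1, a slow troponin (0.91, SE 0.23), with overlap between the strains. The list median was 0.53, and -0.04 without B6 Sox17+/- replicate 3. The mean level of that list was 7.86 in this library, against 5.39 to 5.93 in the other B6 and 5.45 to 6.04 in the ICR samples. The call of Tnnt1 was lost without any library but B6 Sox17+/- replicate 3 and ICR wild type replicate 1 (limma adjusted p up to 0.135). Of 24 hepatocyte genes 0 passed in either direction, with 3 at a limma p under 0.05 before adjustment. Without both ICR samples of number 1, 8 rose with a median of 0.69, and 1 rose without either of them alone or after centring, while 1 fell without B6 wild type replicate 3. The median was 0.57 without ICR Sox17+/- replicate 1, 0.17 without B6 wild type replicate 3 and 0.13 without ICR wild type replicate 2. With all samples it was 0.35 over both genotypes, -0.09 in Sox17+/- and 0.77 in wild type gallbladder, and their mean level lay between 9.44 and 10.04 in B6 and between 8.67 and 10.37 in ICR. Of 24 endothelial genes 1 fell, Prox1 (4.17%, near the 3.94% of all genes lower). A single gene rose among 17 neural genes (Prph, 5.88%), among 10 pigment cell and neural crest genes (Kit, 10%) and among 14 intestinal and gastric genes (Shh, 7.14%). Of all genes 5.01% rose. Prph lost its call without any library but ICR wild type replicate 1, and Kit without any but that and B6 wild type replicate 3 (limma adjusted p up to 0.111 and 0.129). In limma 0 genes passed among 15 of mesothelium, 12 of pancreas and 6 linked to sex chromosomes, where 4, 4 and 2 had a p under 0.05 before adjustment. With probe sets averaged, Xist passed as a fall (-1.47, limma adjusted p = 0.00301). The part of these tissues in the other results was not tested.

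Biliary epithelium genes rose where they passed. Of 25 measured, 4 rose and 0 fell (16% against 5.01% of all genes higher), 23 lay above 0 (60.8% of all genes did) and the median was 0.26 (0.19 as deposited and 0.39 after centring on medians). Prom1, a membrane protein of epithelial protrusions, lay between 10.91 and 11.47 in the 4 B6 samples and between 9.86 and 10.33 in the 4 ICR samples (difference 1.09, SE 0.12; limma adjusted p = 0.00219). Cldn4, a tight junction protein, read 8.12, 8.20, 8.09 and 8.09 in B6 and 7.54, 7.57, 7.49 and 7.33 in ICR (difference 0.64, SE 0.08; limma adjusted p = 0.00288). The strains did not overlap in either. The trefoil peptides Tff3 (0.93, SE 0.17) and Tff2 (0.52, SE 0.09), secreted by mucous epithelia, rose with overlap between the strains. Within each strain, both Sox17+/- values of either gene lay above both wild type values. The call of Tff2 was lost without B6 wild type replicate 3 (limma adjusted p = 0.0579). Keratins did not pass, with Krt7 at 0.32 (SE 0.10; limma adjusted p = 0.0791) and Krt18 at 0.26 (SE 0.08; limma adjusted p = 0.0828). Of 19 transport genes only the water channel Aqp1 passed (0.46, SE 0.11), a share of 5.26%, near the 5.01% of all genes higher. Its call was lost without 6 of the 8 libraries, those other than ICR Sox17+/- replicate 2 and ICR wild type replicate 1.

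Among 26 regulators of the extrahepatic biliary tree 1 rose and 2 fell (3.85% and 7.69%, near the 5.01% and 3.94% of all genes; median -0.04). Onecut1, a transcription factor of hepatic and biliary development, fell most. It read 6.68, 5.76, 6.19 and 5.57 in B6 and 8.0, 8.29, 9.10 and 9.14 in ICR, a difference of -2.58 (SE 0.31; 6.00-fold lower; limma adjusted p = 0.00302). The strains did not overlap, as the rule for the largest falls required, and the second probe set of Onecut1 read -2.46. The difference was -1.93 in Sox17+/- and -3.24 in wild type gallbladder, and the test of strain by genotype did not pass (limma adjusted p = 0.831). Prox1, a factor of liver and lymphatic development, fell by 1.00 (SE 0.22) and the R-spondin receptor Lgr4 rose by 0.36 (SE 0.08). The call of Prox1 was lost without either B6 wild type sample or ICR wild type replicate 2 (limma adjusted p up to 0.0748), that of Lgr4 without any B6 sample or ICR wild type replicate 2 (up to 0.103 in limma). Sox17 itself did not differ between the strains beyond its error: it read 8.07, 7.95, 9.34 and 9.09 in B6 and 7.69, 7.94, 9.57 and 9.29 in ICR (difference -0.01, SE 0.13; limma adjusted p = 0.961). In both strains its Sox17+/- values lay below its wild type values.

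Of 17 Hedgehog pathway genes 1 rose and 1 fell (5.88% each, near the 5.01% and 3.94% of all genes, with a median of 0.02). Shh, the secreted ligand, read 9.16 and 9.56 in B6 Sox17+/- and 12.30 and 12.31 in B6 wild type samples, against 8.40 and 8.61 in ICR Sox17+/- and 11.76 and 11.74 in ICR wild type samples. The strains overlapped, the genotype difference (Sox17+/- minus wild type) was -3.09 log2 units, and within each genotype both B6 values lay above both ICR values. The difference was 0.71 (SE 0.11; 1.63-fold; limma adjusted p = 0.00747). Gas1, a co-receptor for Shh, read 12.08, 11.88, 11.92 and 11.92 in B6 and 12.51, 12.44, 12.58 and 12.55 in ICR, with no overlap (difference -0.57, SE 0.06; limma adjusted p = 0.00224). Its other probe sets read -0.78 and 0.02.

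In the wall, 4 of 31 fibroblast and matrix genes fell and 0 rose (12.9% against 3.94% of all genes lower), with a median of -0.09 that turned to 0.10 after centring on medians and 0.01 with the mean of probe sets. Sparc, a matrix-binding glycoprotein, differed by -0.52 (SE 0.08; other probe sets -0.01 and -0.27), the proteoglycan decorin (Dcn) by -0.32 (SE 0.06; other probe set 0.15), fibulin 2 (Fbln2) by -0.95 (SE 0.15) and dermatopontin (Dpt) by -1.13 (SE 0.26), none with overlap. With probe sets averaged, Dcn (-0.09) and Fbln2 (-0.33) did not pass. After centring on medians, Sparc and Dcn did not pass. The number that fell was 2 without B6 Sox17+/- replicate 4 or either B6 wild type sample. Dcn lost its call without B6 Sox17+/- replicate 4, either B6 wild type sample or ICR wild type replicate 2, and Dpt without these or either ICR Sox17+/- sample (limma adjusted p up to 0.0834 and 0.111). Of 22 smooth muscle genes only Myocd passed (4.55% lower, near the 3.94% of all genes), the coactivator that switches on the smooth muscle programme. It read 7.67, 7.39, 7.55 and 7.11 in B6 and 8.85, 8.39, 9.64 and 9.16 in ICR (difference -1.58, SE 0.23; limma adjusted p = 0.00676), while its other probe set read 0.06. The contractile genes Acta2 (-0.07, SE 0.06) and Myh11 (0.31, SE 0.10) did not pass.

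Cell cycle genes rose where they passed. Of 38 measured, 7 rose and 0 fell (18.4% against 5.01% of all genes), and the median was 0.20 (0.13 as deposited and 0.32 after centring). Mki67, the Ki-67 antigen of dividing cells, read 11.71, 12.01, 11.63 and 11.65 in B6 and 11.26, 11.25, 11.07 and 11.03 in ICR (difference 0.60, SE 0.07; limma adjusted p = 0.00283). The mitotic kinase Aurkb rose by 0.58 (SE 0.10), cyclin B2 (Ccnb2) by 0.48 (SE 0.09) and topoisomerase Top2a by 0.37 (SE 0.07), all without overlap. The other probe set of Top2a read -0.37, and with both averaged it did not pass (0.11). The number that rose was 1 or 2 without B6 Sox17+/- replicate 4 or either B6 wild type sample, 4 without ICR wild type replicate 2 2 with the values as deposited and 11 after centring. Mki67 was the only 1 of these 4 genes called without each single library: Aurkb lost its call without B6 wild type replicate 4, and Ccnb2 and Top2a without B6 Sox17+/- replicate 4 or either B6 wild type sample (limma adjusted p up to 0.0664). Of 22 growth and maturation genes 3 fell and 0 rose (13.6% lower against 3.94% of all genes; median -0.08, and 0.06 after centring), and 11 fell with the mean of probe sets. Igf2r, the receptor that clears insulin-like growth factor 2, read 10.61, 10.02, 10.31 and 10.28 in B6 and 12.11, 11.57, 12.22 and 11.79 in ICR (difference -1.62, SE 0.17; limma adjusted p = 0.00196), although its second probe set read 0.20. Igfbp3, a carrier of these factors, fell by 0.58 (SE 0.09). Hmga2, a chromatin protein of growing embryonic tissue, fell by 0.51 (SE 0.11), and further probe sets of both genes also lay below 0. On the probe set used the strains overlapped in Hmga2, whose genotype difference (Sox17+/- minus wild type) was -0.62. The call of Hmga2 was lost without B6 Sox17+/- replicate 3, either B6 wild type sample or ICR wild type replicate 2 (limma adjusted p up to 0.103).

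Genes of metabolism and stress passed in small numbers. Of 23 hypoxia and glycolysis genes 5 rose and 0 fell (21.7% against 5.01% of all genes higher; median 0.09), among them Pdk1, which diverts pyruvate from the mitochondrion (0.77, SE 0.13), and the glucose transporters Slc2a1 (0.55, SE 0.12) and Slc2a3 (0.66, SE 0.15). With the values as deposited 1 rose. The number was 0 to 2 without any 1 B6 sample, and 1 and 2 when replicate 2 of ICR wild type or of ICR Sox17+/- was left out. Pdk1 lost its call without B6 wild type replicate 3. Slc2a1 lost its call without B6 Sox17+/- replicate 4, either B6 wild type sample or ICR wild type replicate 2. Slc2a3 lost its call without any B6 sample or replicate 2 of either ICR group. With probe sets averaged, neither glucose transporter passed. The strains overlapped in Slc2a3, whose genotype difference (Sox17+/- minus wild type) was 1.12. Of 36 xenobiotic and glutathione enzymes 4 rose and 1 fell (11.1% and 2.78%, against 5.01% and 3.94%; median 0.15). Cbr1, a carbonyl reductase (0.57, SE 0.09), and the glutathione transferase Gstm6 (1.29, SE 0.21) kept their calls without each library, whereas Ugt2b34, a glucuronosyltransferase (0.97, SE 0.21), and Cyp1b1 (0.42, SE 0.10) lost them without B6 Sox17+/- replicate 4, either B6 wild type sample, ICR Sox17+/- replicate 1 or ICR wild type replicate 2, and Cyp1b1 also without ICR wild type replicate 1 (limma adjusted p up to 0.102 and 0.136). The number that rose was 2 without any of the first 5, 9 after centring and 8 with probe sets averaged. Of 27 immediate early and heat shock genes 1 rose and 3 fell, all but Egr1 without overlap (3.70% and 11.1%, against 5.01% and 3.94%, with a median of 0.01). These were Btg2 (0.32), Jund (-0.61), Egr1 (-0.60) and Hspa1b (-0.44), and no fall among them was called without either B6 Sox17+/- sample or ICR Sox17+/- replicate 1. Without either B6 wild type sample or ICR wild type replicate 2 the number that fell was 1, and Btg2 lost its call without any library but ICR wild type replicate 1 (limma adjusted p up to 0.123). Of 39 ribosomal protein genes only Rpl41 passed (2.56% lower, against 3.94% of all genes). It differed by -0.84 (SE 0.17), with 0.07, -0.35 and 0.02 on its other probe sets. Its call was lost without B6 Sox17+/- replicate 4, either B6 wild type sample or ICR Sox17+/- replicate 1.

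**Figure D5:**
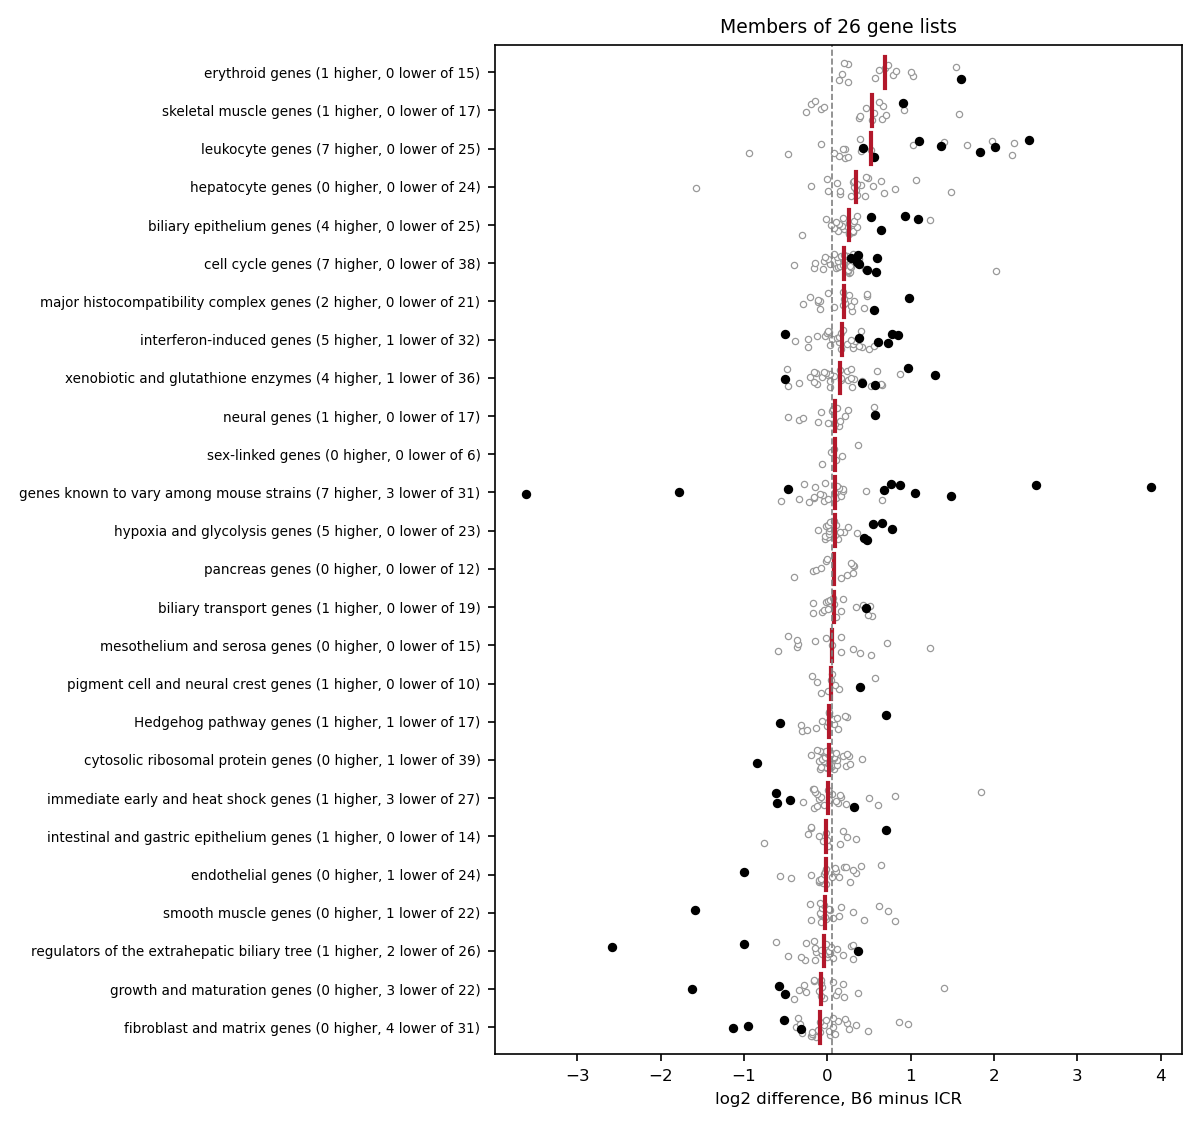
Difference between B6 and ICR gallbladder (log2, B6 minus ICR) of each measured member of 26 gene lists, ordered by median. Filled points passed (limma adjusted p under 0.05), red bars are list medians, the dashed line is the median over all genes, 0.05, and labels give how many members were higher and lower in B6. Leukocyte and cell cycle genes hold 7 rises and 0 falls each, and fibroblast genes 4 falls and 0 rises.

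The strain difference was also taken in each genotype alone, in a model with 1 mean per group. In Sox17+/- gallbladder 74 genes passed (0.505%; 39 higher and 35 lower) and in wild type 584 (3.98%; 274 higher and 310 lower). All 74 had the same sign in wild type, where 65 passed, and 562 of the 584 had the same sign in Sox17+/-. Over all genes 68.7% had the same sign in both, and these contrasts share no sample. The counts rest on few samples: the Sox17+/- count was 15 to 30 without B6 Sox17+/- replicate 4, any B6 wild type sample or either ICR Sox17+/- sample, and it was 277 and 279 when replicate 1 or 2 of ICR wild type was left out. The wild type count was 8 and 7 without B6 wild type replicate 3 or 4, 352 without either B6 Sox17+/- sample and 1505 without ICR wild type replicate 2. Without ICR wild type replicate 1 it was 557, split into 365 higher and 192 lower.

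In no gene did the strain difference itself differ between genotypes by limma at an adjusted p under 0.05, while p before adjustment was under 0.05 in 813 genes (5.545%). Without ICR wild type replicate 2, whose partner stood apart, 552 genes passed, 6 higher and 546 lower. Leaving out B6 Sox17+/- replicate 4 gave 1 gene, as did leaving out ICR wild type replicate 1. The lowest p-values were those of Lect2 and Serpina1b, both secreted by liver cells, and Oit1 (limma adjusted p = 0.831 each). Serpina1b read 12.06 and 12.12 in B6 Sox17+/- and 12.03 and 11.58 in B6 wild type samples, against 12.19 and 11.58 in ICR Sox17+/- and 9.87 and 9.91 in ICR wild type samples. The low values were the ICR wild type samples, and the B6 minus ICR difference was 0.20 in Sox17+/- and 1.91 in wild type. Oit1 passed over both genotypes (1.17, SE 0.22; limma adjusted p = 0.0162), at 0.61 in Sox17+/- and 1.74 in wild type, and lost that call without B6 wild type replicate 3 or 4 (limma adjusted p up to 0.0639).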

How the data were processed

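The authors deposited 1 signal for each of 45101 Affymetrix probe sets in 8 gallbladder samples, on a log2 scale as the values show. Background correction and normalization of the deposited log2 values are not stated in the labels, in which the tags for stage and genotype are swapped (their values were used). Of the probe sets, 64 controls were left out, 34945 have 1 gene in the platform annotation, 932 several and 9160 none listed; 34741 were matched to RefSeq gene identifiers (GRCm38.p6), used for names and gene order. Each gene was read by its probe set of highest mean, cross-hybridizing (_x_at) types only where no other was present. Values were quantile normalized over 8 samples, and genes under the 30th percentile of mean signal (4.40 log2) left out. Limma 3.58.1 (R 4.3.3) was fitted with genotype and strain as terms, empirical Bayes with a mean trend (5 residual, 8.29 total degrees of freedom) and Benjamini-Hochberg adjustment over all 14661 genes. Scripts were tested on simulated data, and figures made with matplotlib 3.10.9. The number of arrays limits the precision, and alternatives are given in the closing section.

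The members and the 26 gene lists (635 of 729 genes on the array, 570 measured) were chosen with earlier results of these data known. The naming rule took the 12 largest rises and falls that passed without overlap, skipping numbered gene models, up to 4 passed members per list by p, Sox17, and the 3 genes of lowest p for the genotype difference. Its first rule for neighbours (3 passed genes, each within 10 measured genes) put 67.8% of passed genes into 182 clusters, so a stricter one was used in its place, and the members of the largest such clusters are not named. Rnase4, Neat1, Trim5, Trim12c, S100a9, Krt7, Krt18, Myh11 and the neighbours named outside the lists were chosen after their values were seen.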

Additional observations from a re-analysis of the deposited data

Results flagged for a closer look

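Among 172 groups of 4 samples checked (the named genes and array measures in each strain), 10 (5.81%) held a sample far from the other 3, and chance gives about 1 in 20. In B6, wild type replicate 4 was lowest for H2-Q10 (7.63, others 8.03 to 8.04), Mid1 (4.91, others 5.13 to 5.16) and Serpina1b (11.58, others 12.03 to 12.12), and Sox17+/- replicate 4 was lowest for Igfbp3 (9.34, others 9.58 to 9.62). In ICR, Sox17+/- replicate 1 was highest for Ifi202b (8.27, others 7.39 to 7.52) and lowest for Igfbp3 (9.88, others 10.16 to 10.20). Wild type replicate 2 was highest for Tcf24 (7.97, others 6.79 to 6.93) and lowest for Prph (4.45, others 4.89 to 4.97). Wild type replicate 1 was lowest for Ifit3 (4.06, others 4.38 to 4.44) and highest for Jund (10.40, others 10.09 to 10.11).

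Probe sets with no listed gene were left out of the comparison of genes above, but are among the 31526 probe sets tested one by one. Tested each on its own, 888 of 4392 passed in limma (20.2%), 328 higher and 560 lower in B6, beside 15.7% of probe sets with 1 gene.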

How the results depend on the processing

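Against 1312 genes over both genotypes, the count was 748 with the values as deposited, 2115 with probe sets of a gene averaged (1039 higher and 1076 lower, 894 of them shared), 5132 of 31526 with every probe set on its own (16.3%), 187 with all 10 samples in the fit, 810 with the replicate number as a random replicate block, 409 with no empirical Bayes, and 477 to 1476 with a library left out. Median centring (1694, of which 1104 shared), quantile normalization over 10 samples (1315), no filter (1313), the 50th percentile filter (1150), no trend (1312), array weights (1611), 1 mean per group (1293), no genotype block (1224) and leaving out both ICR samples of number 1 (1903) stayed within 1.5 times. Strains share no replicate number, so the number could not pair them; same-numbered samples within a strain deviated together at r = 0.203 in B6 and 0.378 in ICR. In wild type alone (584) the mean of probe sets gave 1055 and leaving out a library 7 to 1505. In Sox17+/- alone (74) these gave 205 and 15 to 279. The difference between genotypes (0) was 0 to 552 with a library left out. A sample alone in its group was assumed to vary like the others. Of 545 values of the 24 genes of largest change, 531 kept direction and call, 14 lost the call (11 of Ltf, and Cd52, Map1b and Srrm2 with no empirical Bayes) and 0 reversed. Of 73 named genes that passed, the block lost the calls of 17. The values as deposited lost 20, no genotype block 12, all 10 samples 45 and no empirical Bayes 39. Averaging probe sets lost 11 of 71 (Ptprc, Fbln2, Dcn, Top2a, Lgr4, Prph, Jund, Slc2a1, Slc2a3, Cyp1b1 and Rpl41). Xist, uncalled at 0.36, read -1.47 with the mean of its probe sets, which alone read -3.70, -1.08 and 0.36. The cause of these changes was not tested. Dim genes limit the folds: 7 of the 24 genes lie below the filter level in 1 strain.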
